A study of Mus musculus with 12 samples.

Results

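The Wnt pathway is described here at 10 genes, as they appear in a map of SOX2 on the genome of mouse embryonic stem cells. SOX2 is an HMG-box transcription factor of the pluripotency network, and its sites were found by ChIP-seq, in which DNA bound to the fixed protein is pulled down with an antibody and sequenced. The 10 genes were chosen by name, with earlier results of these data known. The list holds the 4 TCF/LEF factors Tcf7, Tcf7l1, Tcf7l2 and Lef1, the transducer Ctnnb1 and the ligand Wnt3. It also holds the receptors Fzd5 and Fzd7 and the targets Axin2 and Sp5. The members are 10 of 21887 protein-coding genes. A SOX2 region was counted for a gene when the region's midpoint lay inside the RefSeq gene span or within 50 kb of it. All coordinates are on mm10.

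The study had 12 libraries in 4 groups of 3: SOX2 ChIP from mitotic cells with its input DNA, and the same pair from asynchronous cells, which are spread over the cell cycle. All were E14 cells, an embryonic stem cell line, so that no other cell line stands behind any value. Both conditions grew in 10% serum with leukemia inhibitory factor. Both also received CHIR99021, an inhibitor of GSK3, at 3 μM, and PD184352, an inhibitor of MEK, at 0.8 μM. To collect mitotic cells, the culture was held overnight in nocodazole, which blocks microtubules, and fixed cells were sorted for H3S10p, a phosphate mark on the histones of condensed chromosomes. The labels give no arrest for the asynchronous cells, and no group without CHIR99021 is part of the comparison.

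Regions were called on the 3 replicates of a condition together, which gave 84 mitotic regions at a q-value tag of 0.05 and 10351 asynchronous regions at a tag of 0.01. The lists give positions only, so no value has a replicate error, no test over samples could be made, and the sequencing depth is unknown. A lower share of cells with SOX2 on a site and less SOX2 per cell cannot be told apart in such lists. Peak numbers rise along every chromosome, and those of 35.9% of mitotic and 33.6% of asynchronous peaks are not among the entries used here, so a gene without a region is one without a listed region. Of the stem cell loci, Pou5f1 and Esrrb had no mitotic region and 6 asynchronous regions each, and Nanog and Sox2 had no mitotic region and 3 asynchronous regions each. Among loci of other cell types, Gata6 and Sox17 (primitive endoderm) had no region in either list. Cdx2 and Gata3 (trophectoderm) had 2 asynchronous regions each, and the fibroblast genes Col1a1 and Thy1 had 1 each. Of all protein-coding genes, 0.836% had a mitotic region within 50 kb and 45.5% an asynchronous one. Asynchronous counts of 2 or more were found for 18.4%, of 3 or more for 7.35% and of 5 or more for 1.33%. A region near a gene does not measure its expression.

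In the canonical Wnt pathway, a secreted Wnt ligand binds a Frizzled receptor and stops the destruction complex, in which GSK3 marks beta-catenin for degradation. Beta-catenin then enters the nucleus and joins TCF/LEF factors on DNA. An inhibitor of GSK3 acts at the same step from inside the cell; pathway activity was not measured here. In mouse embryonic stem cells, Tcf7l1 acts mainly as a repressor of pluripotency genes and beta-catenin relieves that repression. TCF/LEF factors and SOX2 belong to different families of HMG-box proteins, and their favoured DNA letters begin alike.

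Among the promoters of the 10 genes, that of Sp5 was the one under a SOX2 region, and that of Axin2 belonged to the member farthest from any region. Both genes are textbook targets of beta-catenin. The 250 bases before the start site are shown for both, 5′ to 3′, from RefSeq on GRCm38.p6, the same assembly as mm10. Capitals mark every match to the SOX letters CTTTGT or CATTGT, the octamer ATGCAAAT of POU factors and the TCF/LEF letters CTTTGAT, searched on both strands.
Sp5, chr2:70474673-70474922, plus strand: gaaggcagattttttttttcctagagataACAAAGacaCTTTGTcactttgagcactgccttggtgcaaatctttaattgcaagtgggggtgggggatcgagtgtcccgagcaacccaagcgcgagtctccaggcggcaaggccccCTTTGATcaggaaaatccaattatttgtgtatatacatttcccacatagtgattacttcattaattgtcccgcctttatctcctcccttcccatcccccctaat
Axin2, chr11:108920099-108920348, plus strand: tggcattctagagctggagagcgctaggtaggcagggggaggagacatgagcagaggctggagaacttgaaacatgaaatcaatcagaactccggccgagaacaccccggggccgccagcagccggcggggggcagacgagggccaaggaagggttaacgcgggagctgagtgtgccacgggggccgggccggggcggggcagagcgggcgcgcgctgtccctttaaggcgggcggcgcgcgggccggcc

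In the Sp5 stretch the first match is CTTTGT on the minus strand, read here as ACAAAG, and the next is CTTTGT on the plus strand. They point away from each other with 3 bases between them, 15 bases in all, and their leftmost bases lie 221 and 212 bases before the start site. The TCF/LEF match begins 104 bases before the start. A further CTTTGT lies after the start site, outside the stretch shown. Unlike that of Sp5, the Axin2 stretch lies inside the gene span, which begins at 108917828, ahead of the listed start site at 108920349. Bases before the Axin2 span were not searched. The Axin2 stretch holds no match to any of these letters. It is also richer in G and C, with 69.2% against 46.0% in Sp5 and a median of 52.4% over 32851 promoter windows, and holds 24 CG pairs where Sp5 holds 6.

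These letters are common in promoters. Of all 32851 windows, which run from 250 bases before to 50 bases after a start, 28.6% hold CTTTGT or CATTGT, 1.74% hold ATGCAAAT and 3.73% hold CTTTGAT. Among the 512 windows that overlap an asynchronous region the shares are 53.9%, 4.88% and 5.27%. The 10 genes have 16 listed windows, some of which overlap each other. SOX letters stand in 7 of the 16, those of Tcf7l1, Tcf7l2, Lef1, Wnt3, Fzd7 and Sp5. The octamer stands in none, and CTTTGAT in the Sp5 window alone. The sequences of regions away from promoters were not used here.

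Mitotic cells had no SOX2 region within 50 kb of any of the 10 genes, while asynchronous cells had one at 8 of them. With 3 counts as the limit, 0 of 10 genes near a mitotic region corresponds to 30.0% (exact 95% bound 30.8%), and 0.836% of all protein-coding genes were near one. With a background that low, an absence at 10 genes was not detectable. In asynchronous cells 8 of 10 genes is 80.0% (exact 95% interval 44.4 to 97.5%), set beside 45.5% of all protein-coding genes. The 10 genes were not drawn at random, and earlier results of these data were known when they were chosen. Tcf7, Tcf7l1, Tcf7l2, Lef1, Ctnnb1, Wnt3, Fzd5 and Sp5 had a region, and Fzd7 and Axin2 had none.

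Every one of those 8 genes also had an asynchronous region within 10 kb, a distance at which 23.8% of all protein-coding genes had one. No mitotic region lay within 10 kb of a member, set beside 0.343% of all genes. The asynchronous regions numbered 19, and each was counted for 1 member. None of the 19 overlapped a mitotic region by at least 1 bp. In the whole list 9 of 10351 asynchronous regions did, or 0.0869%, a share that predicts 0.0165 overlaps among 19, so the count of 0 was not distinguishable from it.

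The nearest mitotic region was megabases away from every member that has one on its chromosome. The distance was 9.42 Mb for Wnt3, the shortest, and 50.9 Mb for Ctnnb1, the longest, with a median of 15.5 Mb over 9 genes. Tcf7l2 lies on chromosome 19, where no mitotic region was listed. The median over all 19960 protein-coding genes on chromosomes with a mitotic region was 9.35 Mb. The nearest asynchronous region lay inside the span of Tcf7l1, Tcf7l2, Lef1, Wnt3 and Fzd5, and the median distance over all protein-coding genes was 62.0 kb.

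**Figure D1:**
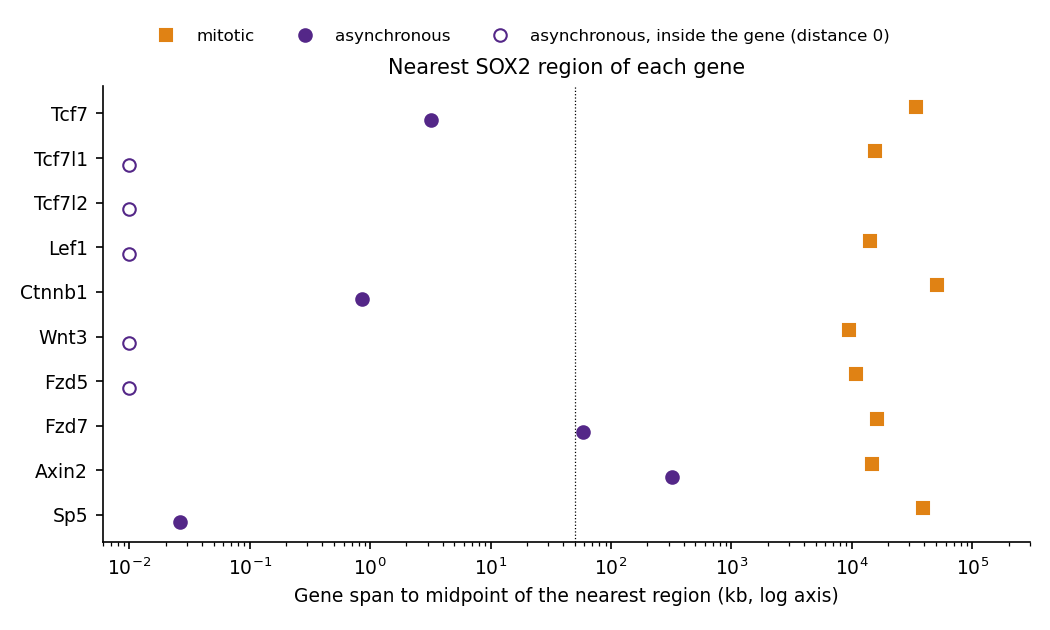
Distance in kb (log axis) between each gene span and the midpoint of its nearest SOX2 region, with mitotic regions as squares and asynchronous regions as circles; open circles, drawn at the left edge of the axis, stand for a midpoint inside the gene, and the dotted line is at 50 kb. Mitotic distances run between 9.42 and 50.9 Mb, while 8 asynchronous circles lie left of the line and those of Fzd7 and Axin2 lie right of it.

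The 4 TCF/LEF genes, which encode the factors that beta-catenin joins on DNA, all had asynchronous regions, 12 in total. Tcf7l1 had 5, Lef1 had 4, Tcf7l2 had 2 and Tcf7 had 1. The other 6 members had 7 regions, of which Wnt3 had 3, Sp5 had 2, Ctnnb1 and Fzd5 had 1 each and Fzd7 and Axin2 had 0. The median per gene was 3 for the TCF/LEF genes and 1 for the others, and the median over all protein-coding genes was 0. The counts of both sets overlap, since Tcf7 had fewer than Wnt3 and Sp5.

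TCF/LEF genes are also longer, and longer genes have more regions throughout the genome. Their spans ran between 36.9 and 192 kb, against 2.80 to 43.8 kb for the other members. Relative to the length searched, the span plus 50 kb on either side, the TCF/LEF genes had 1.33 regions per 100 kb and the other members 0.974. All protein-coding genes had 0.520 per 100 kb by the same sum. Gene by gene, these rates did not separate both sets. Wnt3 (2.09) and Sp5 (1.95) stood above Tcf7l1 (1.90) and Lef1 (1.87). Fzd5 (0.933) and Ctnnb1 (0.787) stood above Tcf7 (0.731) and Tcf7l2 (0.685), and Fzd7 and Axin2 were at 0. By span, 2 of the 3 members under 10 kb, 3 of the 4 at 10 to 50 kb and 3 of the 3 at 100 to 200 kb had a region, where 34.0%, 46.4% and 64.6% of all protein-coding genes of those spans did. How much of the difference between both sets comes with span was not tested, and with 4 and 6 genes no test of it was made.

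**Figure D2:**
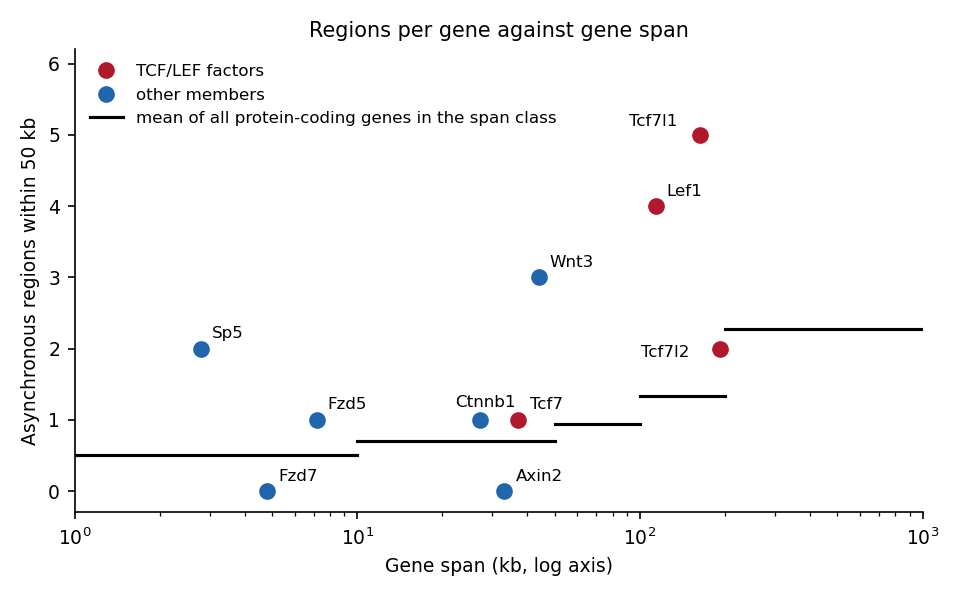
Asynchronous regions within 50 kb of each member against its gene span in kb (log axis), with TCF/LEF factors in red, the other members in blue, and black lines for the mean of all protein-coding genes in 5 span classes (the first and last classes are open-ended). Tcf7l1 and Lef1 stand at 5 and 4 regions, where genes of 100 to 200 kb have a mean of 1.33, and Fzd7 and Axin2 stand at 0.

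Tcf7l1, the repressor of the family in embryonic stem cells, had the most regions of the 10 genes. Its span is chromosome 6, 72626371 to 72789045, on the minus strand. Across the genome 1.33% of protein-coding genes had 5 or more regions, and 4.10% of those with spans of 100 to 200 kb did. Of the 5 regions, 4 lay inside the gene and 1 before it.

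The widest Tcf7l1 region, 589 bp at 72787264 to 72787852, lay 1.49 kb into the gene from its start site. Its width was at percentile 96.4 of the asynchronous list. The region before the gene, 406 bp at 72794859 to 72795264, lay 6.02 kb from the start site. The other 3 lay deeper in the gene, 18.7, 30.5 and 111 kb from the start, and were 301, 257 and 307 bp wide. The listed regions gather toward the start of the gene, with gaps of 7.50, 17.2 and 11.8 kb between the first 4 and 80.8 kb to the deepest one. Peak number 12152, which falls in that 80.8 kb gap, is not among the entries used here, so the gap is one between listed regions only. Another peak number is missing on the far side of the deepest region, at an unknown place.

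Lef1, a factor that itself responds to Wnt signals in many tissues, had 4 regions. Its span is chromosome 3, 131110297 to 131224357, on the plus strand. Of all protein-coding genes 3.08% had 4 or more regions, and 8.90% of those with spans of 100 to 200 kb did. The regions lay on both sides of the start site, with gaps of 17.6, 15.6 and 26.3 kb. Before the start were a region of 263 bp at 131084749 to 131085011, 25.4 kb away, and one of 488 bp at 131102207 to 131102694, 7.85 kb away. Inside the gene were regions of 272 bp at 131117953 to 131118224 and of 308 bp at 131144255 to 131144562, 7.79 and 34.1 kb from the start. The 488 bp region, at width percentile 90.1, was the widest of the 4. No other protein-coding gene lay within 50 kb of any of the Lef1 regions.

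Tcf7l2, the factor best known for the upkeep of the intestinal lining, had 2 regions although its span is the longest of the 10 genes. The span is chromosome 19, 55741797 to 55933659, on the plus strand. A region of 295 bp at 55714724 to 55715018 lay 26.9 kb before the start site. A region of 183 bp at 55852344 to 55852526 lay inside the gene, 111 kb from the start, and 183 bp is the smallest width of the whole asynchronous list. The 2 regions were 138 kb apart, and peak number 7761, which falls between them, is not among the entries used here. Having 2 or more regions was shared by 18.4% of all protein-coding genes.

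Tcf7, a factor best known in T cells, had 1 region, and that region was the widest of all 19. It was 702 bp wide at chromosome 11, 52286213 to 52286914, at width percentile 98.7. It lay 3.55 kb before the first listed start site of Tcf7 (span 52246527 to 52283383, minus strand). Skp1, which encodes a subunit of ubiquitin ligases, was also within 50 kb, but Tcf7 was the nearest gene. Further regions lay 57.0 and 76.6 kb from the Tcf7 span, and their nearest gene was Vdac1.

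**Figure D3:**
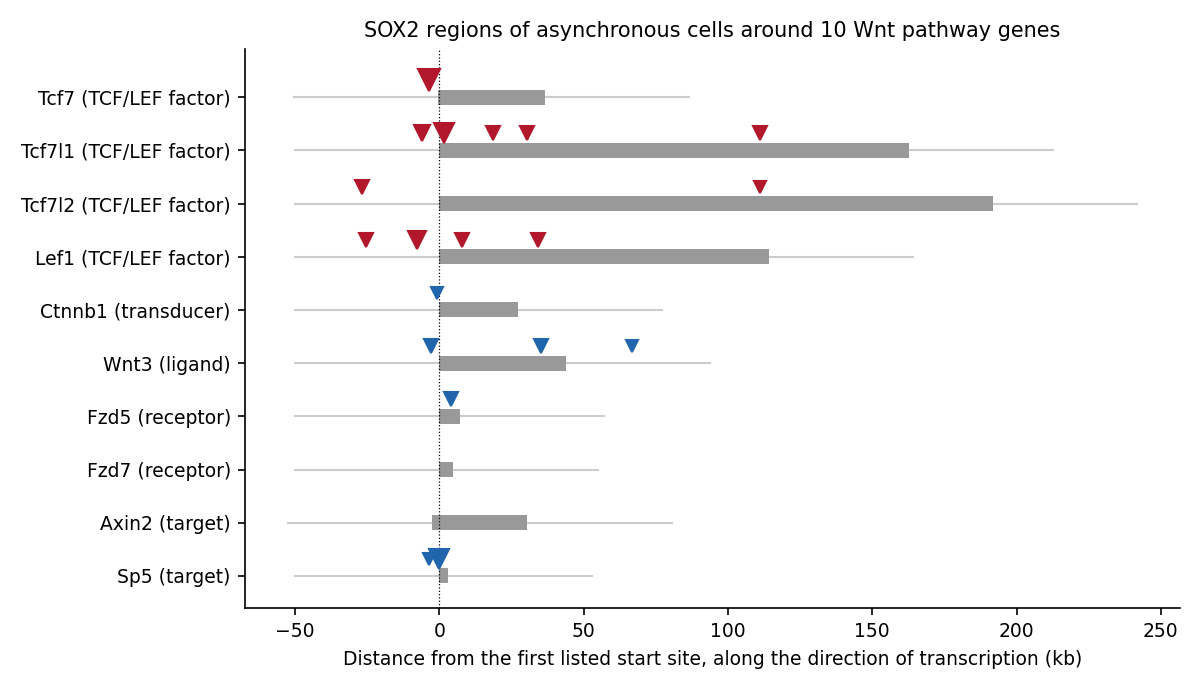
Asynchronous SOX2 regions (triangles, larger for wider regions) around each of the 10 genes, drawn in the direction of transcription, with the gene span as a grey bar, the 50 kb on either side as a thin line, and the distance from the first listed start site in kb on the horizontal axis. Listed regions gather around the start of Tcf7l1 and of Lef1, lie at the start of Sp5 and Ctnnb1, and are missing at Fzd7 and Axin2.

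Ctnnb1 encodes beta-catenin, which joins TCF/LEF factors on DNA and also links cadherins at cell junctions. It had 1 region, 218 bp wide at chromosome 9, 120932437 to 120932654. The region's midpoint lay 0.855 kb before the start site (span 120933400 to 120960507, plus strand), outside the promoter window. Ulk4 was also within 50 kb of it. A further region lay 78.9 kb from the span, outside the limit.

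Wnt3, the ligand on the list, is needed for the primitive streak in the mouse embryo. It had 3 regions, a count that 7.35% of protein-coding genes reach or pass. A region of 256 bp at chromosome 11, 103771007 to 103771262, lay 3.04 kb before the start site of Wnt3 (span 103774175 to 103818021, plus strand). That midpoint is also inside the span of the neighbouring ligand gene Wnt9b. A region of 266 bp at 103809246 to 103809511 lay inside Wnt3, 35.2 kb from the start. The third, 198 bp at 103841014 to 103841211, lay 23.1 kb beyond the end of Wnt3 and inside Nsf, which encodes a factor of vesicle fusion. Counted by nearest gene, Wnt3 therefore keeps 1 of its 3 regions.

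The receptor genes differed from each other. Fzd5, a Frizzled receptor, had 1 region of 306 bp inside its short span, at chromosome 1, 64733526 to 64733831, 4.07 kb from the start site (span 64730558 to 64737750, minus strand). Fzd7, a Frizzled receptor studied in embryonic stem cells, had none within 50 kb of its span (chromosome 1, 59482147 to 59486955, plus strand). It falls just outside the limit, with a region of 357 bp at 59423100 to 59423456, 58.9 kb away, whose nearest gene it is. Another region lay 98.3 kb away, inside Gm973. A distance of 58.9 kb or more to the nearest region was found for 51.1% of protein-coding genes.

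The targets differed, with a region over the promoter of Sp5 and none near Axin2. Sp5, a zinc finger transcription factor induced by Wnt signals, had 2 regions although its span (chromosome 2, 70474923 to 70477726, plus strand) is the shortest of the 10. One, 570 bp wide at 70474612 to 70475181, began 311 bases before the start site and covered the whole promoter window. Its midpoint lay 0.0265 kb before the start, and its width was at percentile 95.6. A narrow region of 183 bp at 70471221 to 70471403 lay 3.61 kb before the start.

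The Sp5 promoter was the only one of 16 member windows to overlap an asynchronous region. Of all 32851 windows 1.56% overlap one, and 0.155%, or 51 windows, lie wholly inside one as that of Sp5 does. The paired CTTTGT matches printed above lie 192 and 183 bp from the region's midpoint, the CTTTGAT match 74.5 bp and the CTTTGT after the start site 70.0 bp. The position of the summit within the region is not given in the list.

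Axin2 encodes a scaffold of the destruction complex and is a feedback target used across tissues as a readout of Wnt activity. No region of either list lay within 100 kb of its span (chromosome 11, 108917828 to 108950783, plus strand). The nearest mitotic region was 14565 kb away and the nearest asynchronous region 322 kb away, at 108595301 to 108595516. Of protein-coding genes 12.3% were as far or farther from an asynchronous region. The listed regions that flank Axin2 are 881 kb apart, and 4 peak numbers between them are not among the entries used here.

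The 19 member regions were of ordinary width as a group, with a few wide ones. Their median was 295 bp, against 289 bp for the whole asynchronous list, and 10 of 19 were wider than that list's median. The 12 regions of the TCF/LEF genes had a median of 304 bp (183 to 702 bp), and 8 were above the list median. The 7 regions of the other members had a median of 256 bp (183 to 570 bp), and 2 were above it. The 4 widest lay at Tcf7 (702 bp), Tcf7l1 (589 bp), Sp5 (570 bp) and Lef1 (488 bp), all within 8 kb of a start site. How wide a region is called also depends on depth, so widths say nothing certain of binding strength.

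By place, 9 of the 19 regions lay inside the member's span, 9 before its start and 1 beyond its end. Exons and introns were not separated, because the annotation gave spans only. For 17 of the 19 the member was the nearest protein-coding gene, the exceptions being both at Wnt3. For 10 of the 19 no other protein-coding gene lay within 50 kb, and those 10 were regions of Tcf7l1, Tcf7l2 and Lef1.

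**Figure D4:**
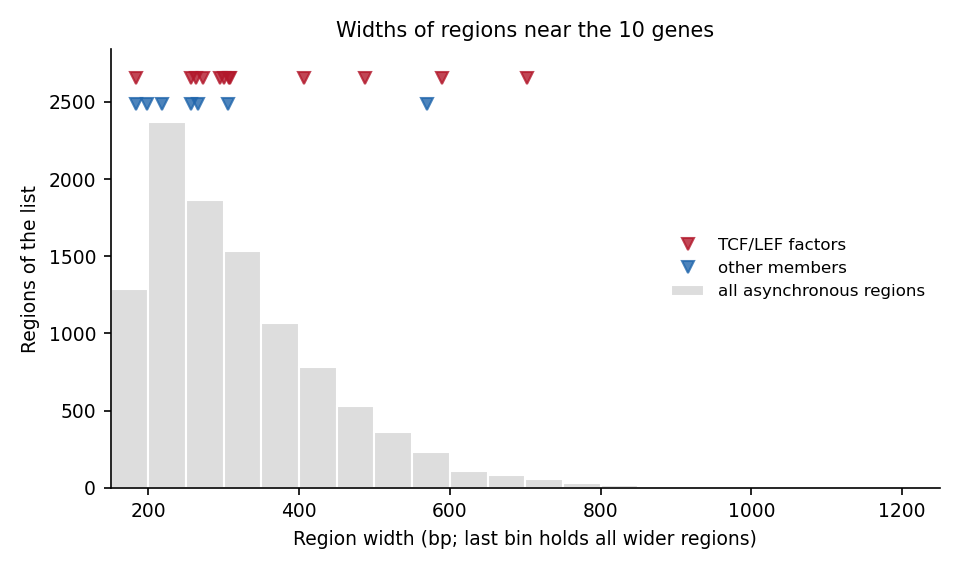
Widths in bp of the regions near the TCF/LEF genes (red triangles) and near the other members (blue triangles), above a histogram of all asynchronous regions in bins of 50 bp. Most triangles stand over the bulk of the list, and those at 702, 589, 570 and 488 bp stand in its upper tail.

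Beyond the 10, 85 further genes of the pathway were examined, in 10 roles. This list too was chosen with earlier results of these data known. None had a mitotic region within 50 kb. With 3 counts as the limit, 0 of 85 corresponds to 3.53% (exact 95% bound 4.25%), set beside 0.836% of all protein-coding genes. In asynchronous cells 53 of 85 (62.4%, exact 95% interval 51.2 to 72.6%) had a region, against 45.5% of all, and 38 of 85 (44.7%) had one within 10 kb, against 23.8% of all. Their median span was 29.2 kb, against 17.2 kb for all protein-coding genes, and the shares were not corrected for it.

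The listed targets other than Axin2 and Sp5 all had an asynchronous region, 7 of 7, set beside 45.5% of all protein-coding genes. Esrrb, an orphan nuclear receptor known as a gene that Tcf7l1 can repress in mouse embryonic stem cells, had 6. Its repression was not measured here. T, the mesoderm factor Brachyury, had 4, and Cdx1 and Cdx2, caudal homeobox factors, and Myc had 2 each. Nuclear cofactors had one in 6 of 11 cases, with 3 each at Ctbp2, Tle1 and Tle3, which encode co-repressors. Of the destruction complex, 3 of 7 had one: the scaffold gene Axin1 had 4, Btrc, which recruits the ubiquitin ligase to beta-catenin, had 3, and Gsk3a had 1. Gsk3a encodes one of the kinases that CHIR99021 inhibits. Its paralogue Gsk3b, singled out after its value was seen, had none within 50 kb, with the nearest 162 kb away.

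Outside the nucleus, 9 of 13 receptors had an asynchronous region, where 45.5% of all protein-coding genes had one. In all 9 cases one lay within 10 kb, a distance at which 23.8% of all protein-coding genes had one. Ror2, a receptor of Wnt5a, had 3, Ryk had 2 and the other 7, Fzd1 among them, had 1 each. Of the ligands, 11 of 18 had one, and 5 of them, Wnt3a, Wnt5a, Wnt5b, Wnt7b and Wnt9b, shared the highest count of 2. Both Wnt9b regions were also counted for its neighbour Wnt3 above. Within the ligands, a sum of 16 came from 15 distinct regions. Of the inhibitors that act outside the cell or at its surface 9 of 13 had one. Sfrp2, which binds Wnt proteins, had 4. Dkk1, which blocks the co-receptor Lrp6, Notum, which strips the lipid from Wnt proteins, and Kremen2, a membrane receptor of Dkk proteins, had 2 each.

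In the remaining roles the counts were small, and 45.5% of all protein-coding genes had an asynchronous region within 50 kb. The cytoplasmic transducer Dvl3 and the feedback inhibitors Nkd1 and Nkd2 had 2 each, 3 of 5 in that role. The R-spondin receptors Lgr4, Lgr5 and Lgr6 and the ligand gene Rspo1 had 1 each, 4 of 7 genes in that role. Porcn, which adds the lipid to Wnt proteins, had 2 and was the one of 2 secretion genes with a region. Znrf3 and Rnf43, the ubiquitin ligases that remove Frizzled receptors, had none within 50 kb. Znrf3 falls just outside the limit, with the nearest asynchronous region 51.3 kb away, and Rnf43 was 404 kb from one.

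**Figure D5:**
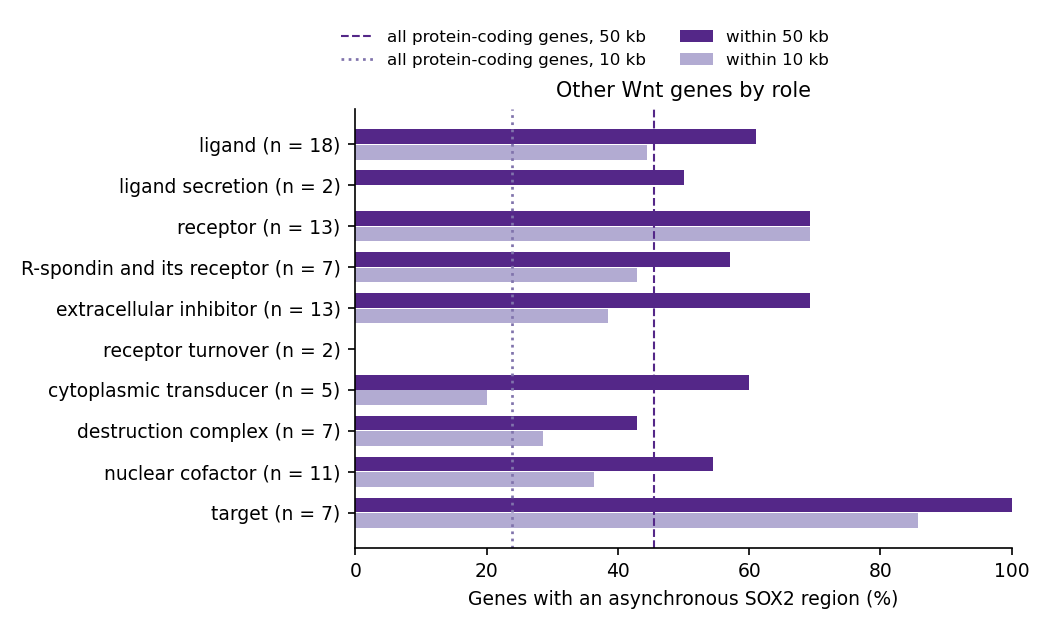
Percent of the 85 further Wnt genes in each role with an asynchronous SOX2 region within 50 kb (dark bars) or 10 kb (light bars) of the span, with the shares of all protein-coding genes, 45.5% and 23.8%, as dashed and dotted lines. Targets stand at 100% (7 of 7) and both receptor turnover genes at 0, with Znrf3 just outside the limit at 51.3 kb.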

How the data were processed

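The submitters' processing notes name Bowtie2 (version 2.2.1), MACS2 and the build mm10; their settings are not given in the sources used here. File and peak names, as deposited, say that MACS2 compared ChIP with input on triplicates, once for the mitotic and once for the asynchronous cells, that blacklisted regions were removed, and that a q-value tag was set. It was read here as 0.05 for mitotic and 0.01 for asynchronous cells, so the mitotic list is the looser one. What the authors deposited are peak positions in bp (unit: other), without p, score or read count.

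Starts were converted to positions counted from 1, and 181 of 10532 asynchronous entries with repeated coordinates were merged. Spans, start sites and promoter windows came from RefSeq for GRCm38.p6. All 10 members and 85 further genes matched by symbol. Where several starts are listed, distances use the first along the gene. Counting was tested on simulated intervals (Python 3.11.15, numpy 2.4.6, pandas 2.3.3, scipy 1.17.1, matplotlib 3.10.9). Intervals are exact (Clopper-Pearson) at 95%, and intervals and limits cover counting error only. They treat genes as independent random draws, although the genes were chosen and neighbouring genes can share a region.

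The members, the wider list and the alternatives were chosen with earlier results of these data known. Named from the wider list were genes near a mitotic region and, per role, up to 3 genes with the most asynchronous regions, together with genes tied with these; Gsk3b, Znrf3, Rnf43 and Wnt4 were named after their values were seen. No set test was run.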

Additional observations from a re-analysis of the deposited data

How the results depend on the processing

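No paired analysis was possible because each list was called on pooled replicates, and for the same reason no replicate could be left out. The 6 counts were recomputed under 7 settings: windows of 10 and 100 kb, any base in place of the midpoint, distance to span ends, regions above the median width, the nearest gene only, and entries as deposited. Of 42 values, 40 stayed within 1.5 times. Among these 40 are values that could not move: the members' mitotic counts and all counts with entries as deposited. Merging touched no member region and cannot change whether a gene has a region. With regions above the median width, the other members had 2 asynchronous regions in place of 7. Within 100 kb, 2 of the 85 further genes had a mitotic region in place of 0, set beside 1.41% of all protein-coding genes. Those 2 were Wnt4, at 81.8 kb, and Myc, at 61.8 kb. Members near a mitotic region stayed at 0 under all 7 settings. No mitotic region lay closer than 9.42 Mb to a member, so none of these settings could change that count. Members near an asynchronous region ran between 6, with regions above the median width, and 9, within 100 kb. Under these 2 settings, 26.7% and 62.4% of all protein-coding genes had one. Depth is unknown.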

Other observations

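The Frizzled family, singled out after its values were seen, ranged between genes with a SOX2 region inside the span and Fzd3, 784 kb from one. None of the 10 had a mitotic region within 50 kb, set beside 0.836% of all protein-coding genes. In asynchronous cells 6 of 10 had a region within 50 kb, set beside 45.5% of all protein-coding genes, and the same 6 had one within 10 kb, set beside 23.8%. The regions at Fzd1 (274 bp), Fzd5 (306 bp) and Fzd8 (440 bp) had their midpoints inside the gene. Those at Fzd10 (601 bp), Fzd2 (386 bp) and Fzd9 (514 bp) lay 0.536, 0.693 and 2.27 kb outside. Fzd7 and Fzd4 were 58.9 and 62.2 kb from the nearest region, where the median of all protein-coding genes was 62.0 kb, and Fzd6 was 300 kb away. Of the 8 Frizzled genes with spans under 10 kb, 6 had a region within 10 kb, set beside 12.4% of all protein-coding genes of that span. The family was not tested.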
